A study of Mus musculus with 6 samples.

Results

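The genes described here are 35 genes of fatty acid oxidation and ketogenesis, chosen by their known function from the 49671 genes counted in mouse liver. They were matched by gene symbol to the Ensembl gene IDs of the counts. All 35 were found and all 35 passed the filter on low counts that left 16089 genes for testing.

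Fatty acids are activated to acyl-CoA, carried into mitochondria as carnitine esters and shortened there in a repeating cycle of dehydrogenation, hydration, a further dehydrogenation and thiolysis. The electrons of the cycle pass through the electron transfer flavoprotein to the respiratory chain. Peroxisomes shorten very long and branched chains and bile acid intermediates with enzymes of their own, and in the liver much of the acetyl-CoA that is formed is turned into ketone bodies for other organs. Many of these genes are textbook targets of PPARA, a nuclear receptor that binds fatty acids and pairs with RXRA on DNA.

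Livers of 6 male mice were profiled by RNA-seq, 3 SHMT2fl/fl controls (labelled WT) and 3 SHMT2HKO mice (labelled KO). Both groups carry Shmt2 alleles flanked by loxP sites, and the SHMT2HKO mice also carry Albumin-Cre, a recombinase driven by a promoter active in hepatocytes, so other liver cells are not the target of the deletion. SHMT2 is the mitochondrial enzyme that breaks serine down to glycine and charges folate with a 1-carbon unit. All mice were weaned at 3 weeks, kept on chow and given the AMLN diet, a feed with much fat, fructose and cholesterol that produces fatty liver and fibrosis, from 4 weeks of age for 18 weeks. The paper states that mice were fasted for some hours before tissues were taken. Counts on genes ranged from 23090837 to 34089722 per liver. Levels of a gene are given as CPM, its counts scaled to a common library total with TMM factors, in the order of mice 1, 2 and 3 of each genotype. Levels of different genes are compared only as RPKM, which is CPM per kilobase of all annotated exons of the gene, merged. This length can exceed that of any single transcript, and the order of genes by RPKM depends on it. A log2 fold change is SHMT2HKO over SHMT2fl/fl, ± is the standard error of the fit or, where it says so, the SD of 3 mice, and a gene was called higher or lower at an adjusted p under 0.05.

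Shmt2 itself separated the genotypes. It was read at 94.6, 109 and 93.9 CPM in SHMT2fl/fl mice and 24.9, 28.3 and 19.3 CPM in SHMT2HKO mice (log2 fold change -2.04 ± 0.16 (SE), adjusted p = 0.000639), and all SHMT2HKO livers lay below all controls. An exact permutation test (two-sided) on these 6 values gave p = 0.1, the smallest p that 3 against 3 allows. The livers also held the defining transcripts of hepatocytes at high levels: the 8 hepatocyte markers summed to 44399, 44458 and 55009 CPM in SHMT2fl/fl mice and 77334, 84335 and 55319.5 CPM in SHMT2HKO mice, with Alb, the serum albumin gene, taking the most counts and none at 0.

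Of the 35 genes, 27 were higher in SHMT2HKO livers, none was lower and 8 did not pass the test. Among all genes tested, 12.5% were called higher and 16.5% lower. All 35 log2 fold changes were above 0, from 0.16 for Ehhadh to 1.37 for Acsl1, and their median of 0.72 compares with 0.03 over all genes tested, whose quartiles were -0.49 and 0.35. Both the calls and the sign depended on how libraries were scaled: with the synthetic ERCC RNAs as the reference the median of the 35 was -0.0018, 18 of the 35 were below 0 and none was called, while 0.665% of all genes were called higher and 17.1% lower. This scaling moved the median of all genes by -0.72, and the median of the 35 stayed 0.69 above it, as it did with TMM. A change of scaling moves all genes nearly alike, so this distance could hardly change and is no test of the rise. The ERCC RNAs took 1.47, 1.84 and 1.42% of counts in SHMT2fl/fl mice 1, 2 and 3 and 2.75, 2.31 and 1.35% in SHMT2HKO mice, so that SHMT2HKO mice 1 and 2 lay above all controls and mouse 3 below them. The TMM factors were 1.21, 1.15 and 1.13 in controls and 0.812, 0.802 and 0.984 in SHMT2HKO mice, with mouse 3 again nearest to the controls. Scaling by library size without TMM moved the median of all genes by -0.42 and left 4 of the 35 called higher, Acsl1, Acaa2, Etfa and Vnn1, where 3.35% of all genes were called higher and 30.6% lower. Whole tissue was sequenced, so fewer cells of one type and less RNA per cell cannot be told apart.

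In 29 of the 35 genes every SHMT2HKO liver lay above every control, and in none did every one lie below. Among all genes tested, every SHMT2HKO liver lay above every control in 21.9% and below in 25.0%. The 6 genes whose groups overlapped were Acot1, Acot2, Hadhb, Acaa1b, Ehhadh and Pdk4, and none of these was called by edgeR. The 2 others that edgeR did not call, Etfb and Acox2, kept the groups apart. DESeq2 called 29 of the 35 genes higher, with Etfb and Acaa1b beside the 27. Of all 16089 genes it called 2535 higher, where edgeR called 2012. The plot of levels by mouse shows these values.

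**Figure D1:**
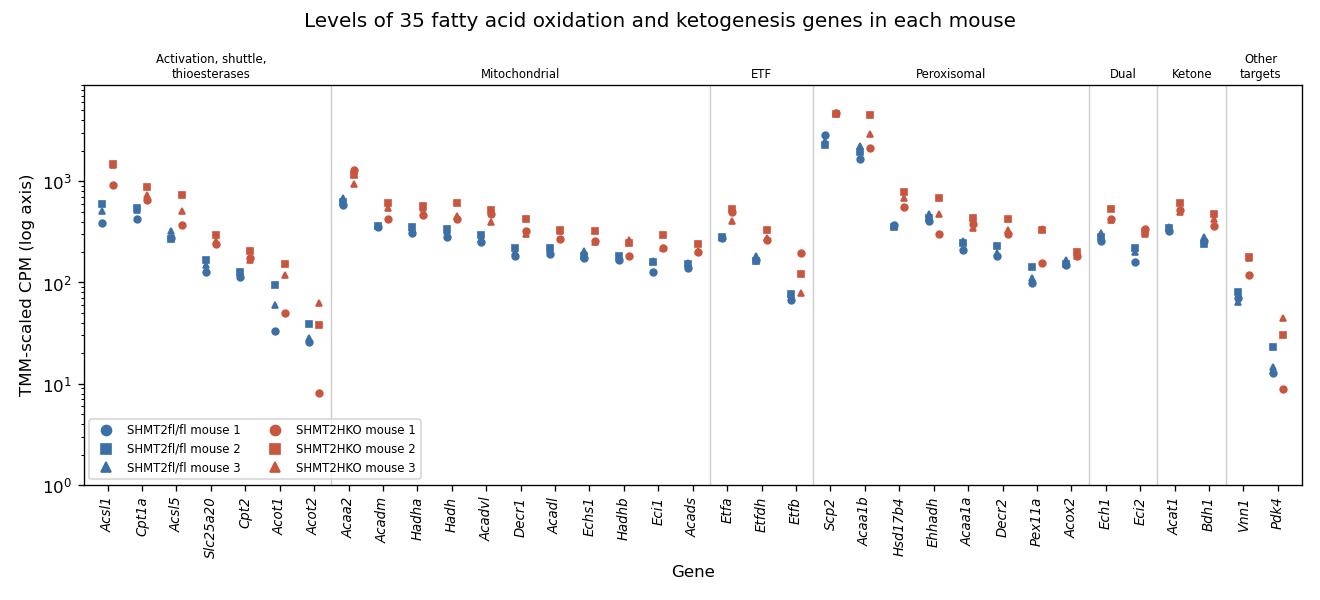
TMM-scaled CPM (log axis) of each of the 35 genes in each of 6 livers, with genes grouped by role on the x axis. Blue symbols are SHMT2fl/fl mice, red symbols SHMT2HKO mice, and symbol shapes mark mice 1, 2 and 3. The red symbols lie above the blue in 29 genes, and they spread widely in Acot1, Acot2, Ehhadh and Pdk4, with SHMT2HKO mouse 1 lowest. CPM are not per length, so heights of different genes are not to be compared.

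The SHMT2HKO livers were not alike. SHMT2HKO mouse 2 was the highest of the 3 in 27 of the 35 genes, and SHMT2HKO mouse 1 the lowest in 22. Expressed as the median over the 35 genes of the log2 difference from the control mean (with 0.5 added to CPM), the 3 SHMT2HKO livers stood at 0.49, 0.88 and 0.60, and the controls at -0.11, 0.056 and 0.054. In the raw counts, before any scaling between samples, the 35 genes took 1.41%, 1.42% and 1.44% of gene counts in controls and 1.49%, 1.93% and 1.999% in SHMT2HKO livers, so that SHMT2HKO mouse 1 was close to the controls on this measure. The first principal component of all genes tested held 64.8% of the variance and divided the genotypes, and the second held 19.4% and set SHMT2HKO mouse 1 apart from SHMT2HKO mice 2 and 3. Without SHMT2HKO mouse 1, 30 of the 35 genes were called higher, and without SHMT2HKO mouse 2, 18. Of all genes tested, 1973 and 1129 were called higher in these fits.

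Hepatocyte markers moved by a like amount. Of the 8 markers, 5 were called higher (Ttr, Apoh, Asgr1, Fah and Serpinc1) and none lower, with a median log2 fold change of 0.72, the same to 2 decimals as that of the 35 oxidation genes, and of -0.10 with ERCC scaling. The 3 that did not pass were Alb (log2 fold change 0.56 ± 0.25 (SE), adjusted p = 0.132), Trf (0.59) and Hnf4a (0.41). Mouse by mouse the medians of the markers and of the oxidation genes were not alike: the markers stood at 0.97, 0.90 and 0.32 in SHMT2HKO mice 1, 2 and 3, so that the oxidation genes lay 0.48 below the markers in mouse 1, 0.02 below in mouse 2 and 0.27 above in mouse 3. The part of hepatocyte RNA in the values of the 35 genes was not tested.

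Markers of other liver cells moved too. The 7 cholangiocyte markers were all lower, with a median of -2.97. Their sum was 1032, 1239.6 and 990.4 CPM in SHMT2fl/fl mice and 132, 131 and 252 CPM in SHMT2HKO mice, and most of this was Spp1, the osteopontin gene, which stood at 876, 944 and 792 CPM in SHMT2fl/fl mice and 104, 105 and 215 CPM in SHMT2HKO mice. Cholangiocytes are the cells that line the bile ducts. Of the 8 stellate cell and myofibroblast markers 5 were lower and 1 higher, and their sum was 1214, 1237 and 1257 CPM in SHMT2fl/fl mice and 260.1, 396 and 693 CPM in SHMT2HKO mice, with Col3a1, a fibrillar collagen gene, taking the most counts and Reln the one that was higher. Reln was not called with ERCC scaling or without TMM. Stellate cells, the vitamin A storing cells of the liver, are known as the main source of its scar collagen. The 8 lymphocyte markers held 4 that were lower and summed to 22.2, 18.5 and 19.9 CPM in SHMT2fl/fl mice and 7.81, 6.38 and 6.02 CPM in SHMT2HKO mice. Of the 8, Cd8a had the largest part of the sum in the mean of controls and Cd4 in the mean of SHMT2HKO mice. Among 8 macrophage markers 3 were higher (Clec4f, Timd4 and Vsig4, all known from resident Kupffer cells) and 2 lower (Cd68 and Csf1r), with most counts over all livers on Cd5l and sums of 349, 218 and 302 CPM in SHMT2fl/fl mice and 362, 447 and 359 CPM in SHMT2HKO mice. Without TMM 2 of the macrophage markers were higher and 3 lower, with Adgre1 added. With ERCC scaling 2 were higher and 2 lower, and Vsig4 was called in neither scaling. Of 7 endothelial markers 2 were higher, Stab2 and Clec4g, with most counts over all livers on Ptprb and sums of 235, 201 and 217 CPM in SHMT2fl/fl mice and 275, 331 and 351 CPM in SHMT2HKO mice. Without TMM 1 of these markers was higher, Clec4g, and 2 were lower, Pecam1 and Cdh5. With ERCC scaling none of them was called and Stab2 had a log2 fold change of -0.15. Stab2 and Clec4g are known from sinusoidal endothelium. Of 5 adipocyte markers only Cfd, the adipsin gene, passed the filter, and it made up most of their sums of 1.15, 2.93 and 2.22 CPM in SHMT2fl/fl mice and 99.2, 62.4 and 11.02 CPM in SHMT2HKO mice. The defining adipocyte gene Adipoq was at 0, 0 and 0.104 CPM in SHMT2fl/fl mice and at 2.67, 0 and 0 CPM in SHMT2HKO mice, and Plin1, the perilipin of fat cells, reached 4.24 CPM in SHMT2HKO mouse 1 and no more than 0.130 CPM in the other livers. The part of these cell types in the values of the 35 genes was not tested.

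**Figure D2:**
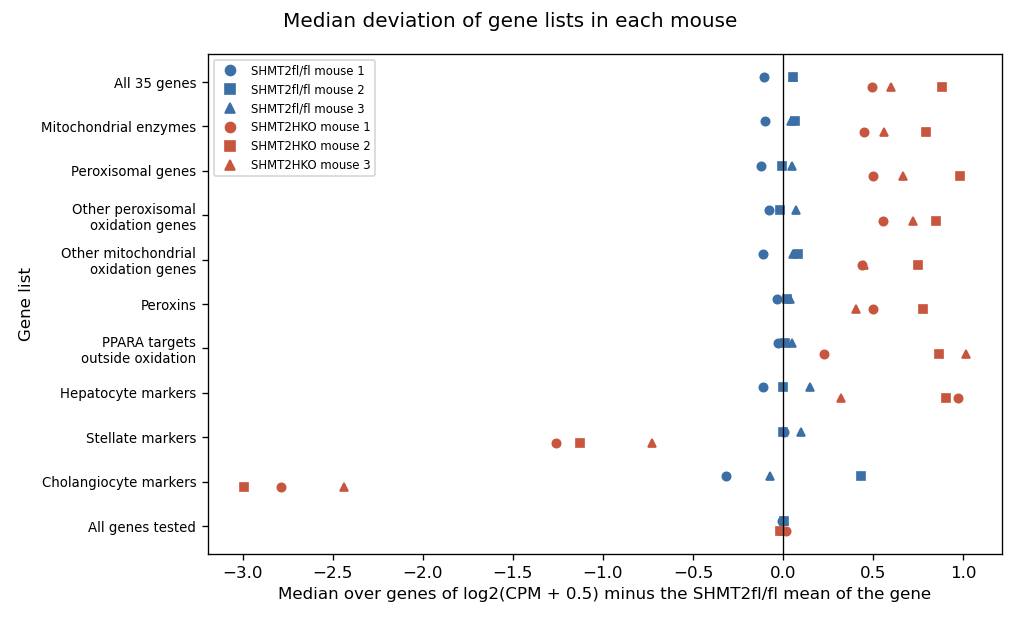
Median over the genes of each list (y axis) of log2(CPM + 0.5) minus the SHMT2fl/fl mean of the gene (x axis), in each of 6 livers. Blue symbols are SHMT2fl/fl mice, red symbols SHMT2HKO mice, and shapes mark mice 1, 2 and 3. The 35 genes, the mitochondrial enzymes and peroxisomal genes among them, the other mitochondrial and peroxisomal oxidation genes and the hepatocyte markers lie to the right of 0 in every SHMT2HKO liver, the stellate and cholangiocyte markers to the left, and all genes tested lie at 0. SHMT2HKO mouse 1 is the highest red symbol for hepatocyte markers and the lowest for the 35 genes.

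Among the 7 genes of activation, carnitine shuttle and thioester cleavage, 5 were higher and the median log2 fold change was 0.77, or 0.13 with ERCC scaling. Acsl1 encodes a long-chain acyl-CoA synthetase that activates fatty acids, and lies on chromosome 8 (GRCm38, GENCODE vM21, chr8:46471037-46536051). It was read at 390.1, 589 and 507 CPM in SHMT2fl/fl mice and 912, 1493 and 1434 CPM in SHMT2HKO mice. All SHMT2HKO livers were above the controls, and the change, 2.58-fold, was the largest among the 35 genes (log2 fold change 1.37 ± 0.24 (SE), adjusted p = 0.00565). It kept its call in every alternative tried except ERCC scaling. Acsl5, another long-chain acyl-CoA synthetase, ranged between 271 and 320.0 CPM in SHMT2fl/fl mice and between 371 and 729 CPM in SHMT2HKO mice (log2 fold change 0.90 ± 0.24 (SE), adjusted p = 0.0256). Its exons lie over those of Zdhhc6 on the opposite strand for 404 bases, and the counting is not stated to use strand. Zdhhc6 had 17.0% as many counts as Acsl5.

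The 3 genes of the carnitine shuttle were all higher. Cpt1a, the carnitine palmitoyltransferase of the outer mitochondrial membrane and the step at which entry is controlled, stood at 427, 541 and 521 CPM in SHMT2fl/fl mice and 645, 867 and 724 CPM in SHMT2HKO mice. The groups did not overlap (log2 fold change 0.59 ± 0.18 (SE), adjusted p = 0.0384). Slc25a20, the carrier that exchanges acylcarnitine for carnitine across the inner membrane, changed by more (log2 fold change 0.83 ± 0.15 (SE), adjusted p = 0.00592), and Cpt2, which returns the acyl group to CoA inside, by about as much as Cpt1a (log2 fold change 0.57 ± 0.13 (SE), adjusted p = 0.0147). Calls of Cpt1a and Cpt2 were lost when any control mouse was left out, while that of Slc25a20 was kept.

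Both acyl-CoA thioesterases varied from mouse to mouse. Acot1, a cytosolic enzyme that releases free fatty acid from acyl-CoA, was read at 33.4, 95.3 and 59.4 CPM in SHMT2fl/fl mice and 50.4, 151 and 119 CPM in SHMT2HKO mice, and control mouse 2 was above SHMT2HKO mouse 1 (log2 fold change 0.77 ± 0.48 (SE), adjusted p = 0.274). Acot2, its mitochondrial neighbour, was read at 26.0, 39.1 and 28.3 CPM in SHMT2fl/fl mice and 8.15, 37.6 and 62.2 CPM in SHMT2HKO mice, with the lowest and the highest value of the 6 both in SHMT2HKO livers (log2 fold change 0.21 ± 0.61 (SE), adjusted p = 0.819). Transcripts of this pair are 95.1% identical over 1274 aligned bases, so reads can be lost or divided between them.

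Per length of merged exons, Cpt1a had the highest level of the 7 in controls, at 64.9 RPKM, and Acsl1 the highest in SHMT2HKO livers, at 122 RPKM. The merged exons of Acsl1 span 10483 bases, while its longest coding transcript has 3897. The order of these 2 genes in controls thus rests on the length used. The range in controls went down to 14.2 RPKM for Acot2.

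In the mitochondrial cycle 10 of 11 genes were higher, with a median of 0.64, or -0.080 with ERCC scaling, and a narrow range, from 0.39 to 0.83. Acaa2 encodes the mitochondrial thiolase, which splits off acetyl-CoA in the last step of the cycle. It was read at 588, 629.7 and 679 CPM in SHMT2fl/fl mice and 1278, 1156 and 928 CPM in SHMT2HKO mice. The groups were well apart (log2 fold change 0.83 ± 0.17 (SE), adjusted p = 0.0107), and with 417 RPKM in SHMT2fl/fl and 739 RPKM in SHMT2HKO livers it had the highest level of the 11 per length.

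The 4 acyl-CoA dehydrogenases, which carry out the opening step for chains of falling length, were all higher. Acadvl, for very long chains, rose most (log2 fold change 0.78 ± 0.16 (SE), adjusted p = 0.00837), and its levels ranged between 251 and 293 CPM in SHMT2fl/fl mice and between 399 and 523 CPM in SHMT2HKO mice. Its exons meet those of Dvl2 on the opposite strand over 1151 bases, and Dvl2 had 7.24% of the counts of Acadvl. Acadl, for long chains, Acadm, for medium chains, and Acads, for short chains, changed by 0.59 ± 0.14, 0.54 ± 0.17 and 0.53 ± 0.13 (log2 fold change ± SE), with adjusted p of 0.0171, 0.0410 and 0.0199. Acadm was the least secure of the 27 calls, lost or reversed in 10 of 16 alternatives. In none of the 4 did the genotypes overlap.

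Hadha and Hadhb encode the paired subunits of the trifunctional protein, which works on long chains at the inner membrane. Hadha was read at 311, 351 and 346 CPM in SHMT2fl/fl mice and 465, 565 and 543 CPM in SHMT2HKO mice (log2 fold change 0.64 ± 0.15 (SE), adjusted p = 0.0143). Hadhb was read at 168, 182 and 176 CPM in SHMT2fl/fl mice and 182, 246 and 261 CPM in SHMT2HKO mice, and SHMT2HKO mouse 1 did not exceed control mouse 2 (log2 fold change 0.39 ± 0.16 (SE), adjusted p = 0.104). Hadhb was the only gene of the 11 not called, and it was called without SHMT2HKO mouse 1. The subunits are known to pair in equal numbers. Per length Hadha was read at 38.5 RPKM in SHMT2fl/fl and 60.0 RPKM in SHMT2HKO livers and Hadhb at 26.6 RPKM in SHMT2fl/fl and 34.8 RPKM in SHMT2HKO livers. The merged exons of Hadhb span 6595 bases and its longest coding transcript 2048, so the ratio of the subunits cannot be read from these values. A transcript of Gm13910 matches Hadhb at 99.8% over 1428 bases and was read at 1.45 CPM in SHMT2fl/fl and 2.19 CPM in SHMT2HKO livers, so a part of the reads of Hadhb may have been left out as not unique.

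The pair lies head to head on chromosome 5, Hadha on the minus strand and Hadhb on the plus strand, with RefSeq start sites 273 bases apart. The bases between all annotated starts of both genes are shown because they lie upstream of both genes. They lie at chr5:30155163-30155247 on the plus strand (GRCm38.p6, RefSeq), run for 85 bases and are 69.4% G or C:
Hadha and Hadhb: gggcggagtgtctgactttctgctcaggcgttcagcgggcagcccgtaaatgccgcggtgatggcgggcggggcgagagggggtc

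The remaining 4 genes act after the opening step or on unsaturated chains. Echs1, the short-chain enoyl-CoA hydratase, changed by 0.57 ± 0.15 and Hadh, the hydroxyacyl-CoA dehydrogenase for shorter chains, by 0.65 ± 0.18 (log2 fold change ± SE). Eci1, an enoyl-CoA isomerase, and Decr1, a dienoyl-CoA reductase, prepare unsaturated chains for the cycle, and rose by 0.70 ± 0.17 and 0.81 ± 0.17. Decr1 (between 182 and 217 CPM in SHMT2fl/fl mice and between 302 and 421 CPM in SHMT2HKO mice) kept its call in all alternatives but library size without TMM and ERCC scaling. Reads of Echs1 may include some of Paox, which crosses it on the opposite strand over 142 bases and had 14.6% of its counts.

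The electron transfer flavoprotein passes electrons from the acyl-CoA dehydrogenases to ubiquinone. Etfa, its alpha subunit, was read at 278, 278 and 274 CPM in SHMT2fl/fl mice and 494, 537 and 409 CPM in SHMT2HKO mice (log2 fold change 0.79 ± 0.15 (SE), adjusted p = 0.00681). The controls lay close together and the SHMT2HKO livers were all above them. Etfdh, the oxidoreductase that hands the electrons to ubiquinone, was read at 168, 164 and 183 CPM in SHMT2fl/fl mice and 261, 330.0 and 276 CPM in SHMT2HKO mice, again without overlap (log2 fold change 0.75 ± 0.14 (SE), adjusted p = 0.00677). Etfb, the beta subunit, was read at 67.4, 77.2 and 77.2 CPM in SHMT2fl/fl mice and 195, 121 and 78.7 CPM in SHMT2HKO mice. Here SHMT2HKO mouse 1 was the highest and SHMT2HKO mouse 3 stood just above the controls, and the test was not passed (log2 fold change 0.83 ± 0.29 (SE), adjusted p = 0.0637). Etfb shares 617 exon bases with Gm45233 on the same strand, so reads there could not be given to one gene. Per length Etfa and Etfb stood at 151 and 63.5 RPKM in controls and 262 and 113 RPKM in SHMT2HKO livers. The 617 shared bases are part of the 1164 exon bases by which Etfb was divided. Its RPKM may thus be too low, and the ratio of the subunits cannot be read from these values.

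Of the 8 peroxisomal genes 5 were higher and the median was 0.76, or 0.044 with ERCC scaling, but they ranged more widely than the mitochondrial genes, from 0.16 to 1.24. Scp2, which encodes the sterol carrier protein and, from the same gene, a thiolase for branched chains, took the most counts of the 35 genes. It was read at 2866, 2256 and 2517 CPM in SHMT2fl/fl mice and 4712, 4558 and 4720.3 CPM in SHMT2HKO mice. The 3 SHMT2HKO livers stood close together and far above the controls (log2 fold change 0.87 ± 0.18 (SE), adjusted p = 0.00930). A pseudogene, Scp2-ps2, matches its transcript at 99.6% over 1371 bases and was read at a mean of 8.73 CPM in controls and 19.4 CPM in SHMT2HKO livers.

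Pex11a, which promotes the elongation and division of peroxisomes, had the largest change of the 8. It was read at 99.5, 141 and 111 CPM in SHMT2fl/fl mice and 157, 333 and 341 CPM in SHMT2HKO mice, and SHMT2HKO mouse 1 lay well below the other SHMT2HKO livers but above the controls (log2 fold change 1.24 ± 0.29 (SE), adjusted p = 0.0171). Its call was lost in 6 of 16 alternatives.

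Not all enzymes of the peroxisomal cycle were called. Acox2, the oxidase for branched chains and bile acid intermediates, was read at 149, 154 and 167 CPM in SHMT2fl/fl mice and 181, 201 and 182 CPM in SHMT2HKO mice, and though no control reached an SHMT2HKO liver the change was small and not called (log2 fold change 0.27 ± 0.12 (SE), adjusted p = 0.136). Ehhadh, the L-bifunctional enzyme that carries out the middle steps and is a classic PPARA target, was read at 404, 431 and 473 CPM in SHMT2fl/fl mice and 299.6, 689.6 and 475 CPM in SHMT2HKO mice. SHMT2HKO mouse 1 was below all controls and SHMT2HKO mouse 2 above them, and no difference was detected (log2 fold change 0.16 ± 0.28 (SE), adjusted p = 0.692). Hsd17b4, the D-bifunctional enzyme that does the same steps on branched chains, rose in every SHMT2HKO liver, ranging between 353 and 366 CPM in SHMT2fl/fl mice and between 556 and 774 CPM in SHMT2HKO mice (log2 fold change 0.90 ± 0.16 (SE), adjusted p = 0.00615). Decr2, the peroxisomal dienoyl-CoA reductase, changed by 0.80 ± 0.17 with an adjusted p of 0.0120.

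Acaa1a and Acaa1b, peroxisomal thiolases for straight chains, were read at 53.8 and 987 RPKM in controls. Acaa1b was at 1661, 1933 and 2213 CPM in SHMT2fl/fl mice and 2143, 4490.2 and 2947 CPM in SHMT2HKO mice, with SHMT2HKO mouse 1 below control mouse 3, and was not called (log2 fold change 0.72 ± 0.28 (SE), adjusted p = 0.0878). Acaa1a was at 208, 245 and 259 CPM in SHMT2fl/fl mice and 374, 436 and 344 CPM in SHMT2HKO mice and was called (log2 fold change 0.70 ± 0.16 (SE), adjusted p = 0.0132). The log2 fold changes of the pair were nearly equal and their errors were not. Transcripts of the 2 are 96.6% identical over 1428 aligned bases, and reads that cover no difference cannot be assigned to either, so the split is uncertain. How many such reads there were was not tested. Acaa1a also crosses Myd88 on the opposite strand over 290 bases, and Myd88 had 10.6% as many counts as Acaa1a.

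Acaa1b and Scp2 led the 35 genes per length, at 987 and 732 RPKM in controls and 1628 and 1341 RPKM in SHMT2HKO livers. The 8 peroxisomal genes together came to 2180.2 RPKM in SHMT2fl/fl and 3688 RPKM in SHMT2HKO livers, and the 11 mitochondrial genes to 1050.0 RPKM in SHMT2fl/fl and 1726 RPKM in SHMT2HKO livers.

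Eci2, an enoyl-CoA isomerase, and Ech1, a dienoyl-CoA isomerase, carry signals for both organelles. Ech1 was read at 256, 284 and 309 CPM in SHMT2fl/fl mice and 426, 532 and 416 CPM in SHMT2HKO mice (log2 fold change 0.69 ± 0.16 (SE), adjusted p = 0.0146), and Eci2 at 159.8, 219 and 198 CPM in SHMT2fl/fl mice and 335, 313 and 301 CPM in SHMT2HKO mice (log2 fold change 0.72 ± 0.15 (SE), adjusted p = 0.0112). In both the 3 SHMT2HKO livers exceeded the 3 controls, and their changes lay between the medians of the mitochondrial and the peroxisomal genes.

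Mitochondrial and peroxisomal medians, 0.64 and 0.76, were near each other. In each liver, the peroxisomal minus the mitochondrial median (log2 difference from the control mean) was -0.020, -0.068 and 0.0058 in controls and 0.050, 0.19 and 0.10 in SHMT2HKO mice. These differences were larger in each SHMT2HKO liver than in any control, but at most 0.19, and they are given without a test because the genes are a chosen list. With ERCC scaling the medians were -0.080 and 0.044, so the mitochondrial one changed sign. The peroxisomal one stayed the higher in all 16 alternatives, but a change of scaling moves both medians nearly alike and cannot test their order. The number of genes called was 10 of 11 and 5 of 8. The 3 peroxisomal genes not called included Ehhadh and Acox2, the smallest changes among the 35 apart from that of Acot2, and Pex11a stood at the other end.

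**Figure D3:**
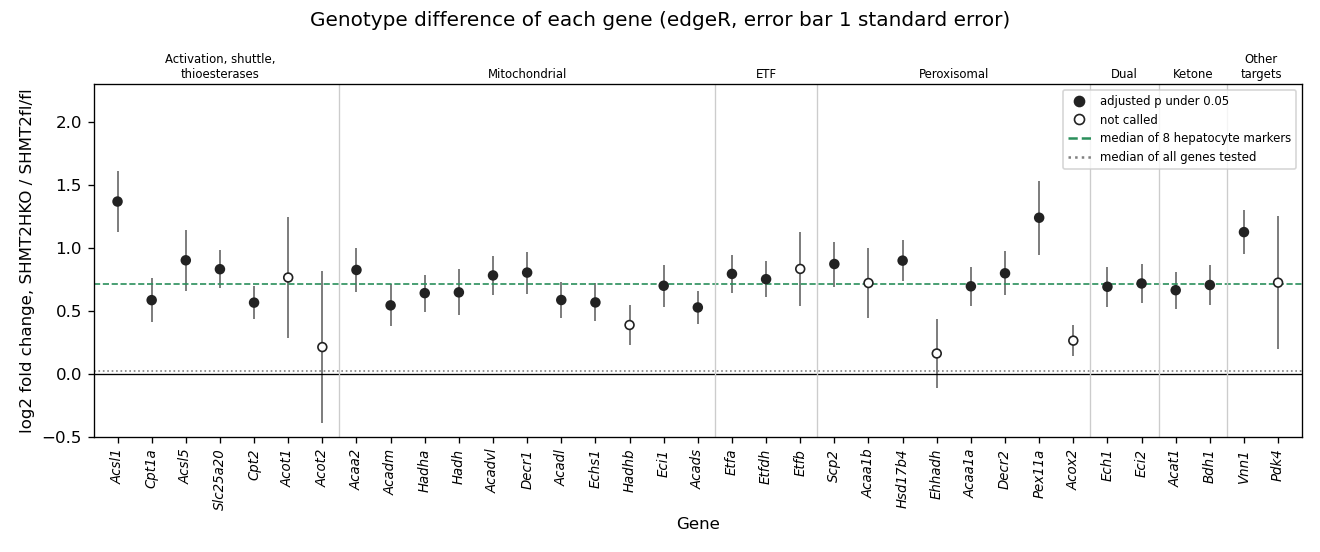
Log2 fold change (SHMT2HKO over SHMT2fl/fl, edgeR) of each of the 35 genes, grouped by role, with bars of 1 standard error. Filled points have an adjusted p under 0.05 and open points do not, the dashed line is the median of 8 hepatocyte markers and the dotted line that of all genes tested. All points are above 0 with this TMM scaling, though 18 fell below it with ERCC scaling. The dashed line stands at 0.72, and Acsl1, Pex11a and Vnn1 are the furthest above it.

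For ketone bodies the 35 genes include the enzymes at the start and the end of the route, both higher, with a median of 0.69, or -0.038 with ERCC scaling. Acat1, the mitochondrial thiolase that joins acetyl-CoA units to acetoacetyl-CoA, was read at 321, 348 and 354 CPM in SHMT2fl/fl mice and 519.8, 607 and 495 CPM in SHMT2HKO mice (log2 fold change 0.67 ± 0.15 (SE), adjusted p = 0.0124). Bdh1, which reduces acetoacetate to hydroxybutyrate, was read at 254, 238 and 279 CPM in SHMT2fl/fl mice and 360.2, 476 and 422 CPM in SHMT2HKO mice (log2 fold change 0.71 ± 0.16 (SE), adjusted p = 0.0124). Neither gene overlapped between the genotypes, and both changes were close to the median of the mitochondrial genes.

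Of 4 further ketone genes, none was higher and 1 was lower, and the median was 0.027, or -0.59 with ERCC scaling. Oxct1, the transferase by which other organs use ketone bodies and which hepatocytes are known to lack, was low and fell, from 19.1, 22.2 and 23.5 CPM in controls to 10.5, 8.41 and 10.2 CPM (log2 fold change -1.15 ± 0.15 (SE), adjusted p = 0.00180). Slc16a1, a monocarboxylate transporter that carries ketone bodies, took the most counts of the 4, at 50.5, 33.6 and 37.1 CPM in SHMT2fl/fl mice and 34.97, 33.7 and 63.6 CPM in SHMT2HKO mice, with the groups interleaved (log2 fold change 0.13 ± 0.27 (SE), adjusted p = 0.754). Bdh2, a dehydrogenase related to short-chain reductases, had the highest value, with 4.67, 6.96 and 6.37 CPM in controls and 13.5, 11.1 and 6.65 CPM in SHMT2HKO livers, but SHMT2HKO mouse 3 stood below control mouse 2 and the test was not passed (log2 fold change 0.80 ± 0.28 (SE), adjusted p = 0.0627). The transporter Slc16a6 (-0.072) was not called either.

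The last pair are PPARA targets that bear on fuel use without being enzymes of oxidation. Vnn1, a pantetheinase that feeds cysteamine and pantothenate pools, was read at 70.9, 79.6 and 64.9 CPM in SHMT2fl/fl mice and 119, 178 and 173 CPM in SHMT2HKO mice, and every SHMT2HKO liver was above the controls (log2 fold change 1.13 ± 0.18 (SE), adjusted p = 0.00343). It kept its call in all alternatives but ERCC scaling. Pdk4, the kinase that shuts pyruvate out of the mitochondrial acetyl-CoA pool, was read at 12.9, 23.2 and 14.7 CPM in SHMT2fl/fl mice and 8.87, 30.3 and 44.4 CPM in SHMT2HKO mice. SHMT2HKO mouse 1 was the lowest of the 6 livers and SHMT2HKO mouse 3 the highest, and the gene was not called (log2 fold change 0.73 ± 0.53 (SE), adjusted p = 0.347).

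Beyond the 35, 70 genes of the same pathways were listed in 6 groups by function, again with earlier results of these data known. Of these 38 were higher and 2 lower, and their median log2 fold change was 0.63. Over all genes tested 12.5% were higher and 16.5% lower, with a median of 0.03. These values are also the background for each of the 6 groups. The 2 lower were Oxct1 and Cpt1c. With ERCC scaling 1 of the 70 was higher, Acacb, and Oxct1 and Cpt1c were again lower. Of all genes 0.665% were higher and 17.1% lower with that scaling. The medians were then -0.59 for the ketone genes, -0.020 for the peroxisomal, -0.016 for the mitochondrial, -0.16 for the peroxins, -0.28 for the regulators and 0.23 for the other targets.

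Further peroxisomal oxidation genes held 8 of 15 that were higher and none lower (median 0.66). Cat, the catalase that removes the hydrogen peroxide formed by the oxidases, took the most counts and was read at 1274, 953 and 1199.6 CPM in SHMT2fl/fl mice and 2359, 2408 and 1872 CPM in SHMT2HKO mice. Every SHMT2HKO liver was above the controls (log2 fold change 0.95 ± 0.19 (SE), adjusted p = 0.00899). The largest value, that of the thioesterase Acot3, rested on SHMT2HKO mouse 2: it was read at 5.06, 33.6 and 16.0 CPM in SHMT2fl/fl mice and 10.3, 165 and 32.2 CPM in SHMT2HKO mice (log2 fold change 1.93 ± 1.08 (SE), adjusted p = 0.226). At the other end Crot, the peroxisomal carnitine octanoyltransferase, was read at 445, 252 and 417 CPM in SHMT2fl/fl mice and 331, 343 and 364 CPM in SHMT2HKO mice with the groups interleaved (log2 fold change -0.10 ± 0.22 (SE), adjusted p = 0.755). Abcd3 (1.13), a transporter of the peroxisomal membrane, and Hacl1 (1.53), the lyase for branched chains, were among those that rose.

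Further mitochondrial genes held 9 of 15 that were higher and 1 lower (median 0.72). Acad11, a dehydrogenase for long chains, took the most counts, at 181, 186 and 207 CPM in SHMT2fl/fl mice and 298, 391 and 389.8 CPM in SHMT2HKO mice (log2 fold change 0.91 ± 0.16 (SE), adjusted p = 0.00483). Acacb encodes the acetyl-CoA carboxylase whose product, malonyl-CoA, inhibits carnitine palmitoyltransferase, and so opposes entry. It had the largest rise of the 15, from 48.5, 59.3 and 51.0 CPM in controls to 117, 348 and 267 CPM in SHMT2HKO livers (log2 fold change 2.20 ± 0.36 (SE), adjusted p = 0.00430). Mlycd, which breaks malonyl-CoA down, rose as well but less (log2 fold change 0.49 ± 0.14 (SE), adjusted p = 0.0305). Cpt1c, a carnitine palmitoyltransferase relative of the brain, was low and fell, from 5.53, 6.77 and 5.06 CPM to 3.27, 1.06 and 1.61 CPM (log2 fold change -1.53 ± 0.38 (SE), adjusted p = 0.0199).

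The 14 peroxins listed, among the proteins that build peroxisomes and import their enzymes, held 12 that were higher and none lower, with a median of 0.60. Pex6, an ATPase of the export machinery, took the most counts, with 119, 135 and 132 CPM in controls and 185, 193 and 164 CPM in SHMT2HKO livers (log2 fold change 0.49 ± 0.13 (SE), adjusted p = 0.0224). Pex26, its anchor on the membrane, rose most, from 24.5, 26.7 and 35.9 CPM to 74.1, 52.4 and 59.3 CPM (log2 fold change 1.10 ± 0.19 (SE), adjusted p = 0.00468). Pex5, the receptor for most imported enzymes, rose by 0.80 ± 0.14. Pex2, of the ubiquitin ligase of the import machinery, had the smallest change of the 14, from 36.1, 34.95 and 37.0 CPM to 45.0, 44.8 and 47.4 CPM, and was still called (log2 fold change 0.34 ± 0.10 (SE), adjusted p = 0.0342).

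Among 12 regulators 5 were higher and none lower. Ppara itself was read at 37.5, 45.3 and 53.1 CPM in SHMT2fl/fl mice and 78.5, 107 and 106 CPM in SHMT2HKO mice, with every SHMT2HKO liver above the controls, a rise of 2.14-fold (log2 fold change 1.10 ± 0.18 (SE), adjusted p = 0.00369). Its partner Rxra, with the most counts of the 12, was read at 390.3, 443 and 488 CPM in SHMT2fl/fl mice and 622, 594 and 586 CPM in SHMT2HKO mice and fell just short of the threshold (log2 fold change 0.45 ± 0.15 (SE), adjusted p = 0.0535). Ppard, a relative of PPARA, had the lowest value, with 19.2, 24.2 and 21.7 CPM in controls and 13.0, 18.7 and 15.7 CPM in SHMT2HKO livers (log2 fold change -0.46 ± 0.16 (SE), adjusted p = 0.0692). The coactivators Ppargc1a (-0.26) and Ppargc1b (0.46) did not pass the test, while Pparg (0.88), Sirt3 (0.72), a mitochondrial deacetylase, and Creb3l3 (0.56), a liver factor of the fasted state, were higher. So was Ncor1, a corepressor of nuclear receptors (log2 fold change 0.38 ± 0.12 (SE), adjusted p = 0.0388), though its value was -0.29 with ERCC scaling.

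Of 10 known PPARA targets outside oxidation, 4 were higher and none lower (median 0.85), and 9 of the 10 log2 fold changes were above 0. Those higher were Fabp1, Mgll, Plin2 and Acsm3. Fabp1, the fatty acid binding protein of hepatocytes, took the most counts and rose most, from 1027, 876 and 1232 CPM to 4207, 3329 and 2501 CPM (log2 fold change 1.68 ± 0.24 (SE), adjusted p = 0.00269). Mgll, the monoacylglycerol lipase, rose 2.83-fold (adjusted p = 0.000887). Fgf21, a hormone induced by PPARA in fasting, had the lowest value, with 16.6, 13.2 and 9.73 CPM in controls and 4.97, 8.002 and 13.8 CPM in SHMT2HKO livers (log2 fold change -0.56 ± 0.36 (SE), adjusted p = 0.275). Cyp4a10 (1.44), Cyp4a14 (0.92), Cidec (0.87), Angptl4 (0.58) and Cd36 (0.45) did not pass the test. In each of these 5 the groups overlapped.

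The promoters of the 35 genes were searched for the direct repeat that PPARA and RXRA are known to bind. The motif was AGGTCA repeated in the same direction with 1 base between the copies, and a looser form allowed any base at the fourth place, AGGNCA. Both strands of the RefSeq promoters (GRCm38.p6), 250 bases before to 50 after the start site, were read. Of 30 of the 35 genes with a promoter sequence none held either form, against 13 (0.0481%) and 122 (0.451%) of 27025 genes. These letters are thus not in these windows, and enhancers further away were not read. At such low shares any 30 genes would seldom hold a match, so the absence does not set these genes apart from others. The promoters of the 30 genes had a median of 58.3% G or C, against 52.7% over all.

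Among 54 of the 70 further genes with a promoter sequence, 1 held the looser form. This was Fabp1, and its promoter is shown with the match in capitals, up to the last base before its earliest annotated start. It lies at chr6:71199629-71199826 on the plus strand (GRCm38.p6, RefSeq), and the match reads on the minus strand and begins 67 bases before the RefSeq start site:
Fabp1: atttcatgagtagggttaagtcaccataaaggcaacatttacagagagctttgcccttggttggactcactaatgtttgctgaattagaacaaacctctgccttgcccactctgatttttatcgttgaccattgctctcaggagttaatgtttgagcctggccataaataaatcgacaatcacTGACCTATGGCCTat

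The calls rested on few mice. All 27 genes called higher by edgeR were also called by DESeq2 and by limma-voom. When a control mouse was left out, 10 to 12 of the 35 genes were called, and when an SHMT2HKO mouse was left out, 18 to 30. Of all genes tested, 805 to 936 were called higher without a control mouse and 1129 to 2521 without an SHMT2HKO mouse. With all mice it was 2012, so the calls over all genes fell as well without a control mouse. Acsl1, Slc25a20, Acadvl, Decr1, Etfa, Etfdh, Hsd17b4 and Vnn1 were the 8 genes called in all 14 alternatives other than library size without TMM and ERCC scaling. The plot of medians and calls under each processing shows these counts beside the medians.

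**Figure D4:**
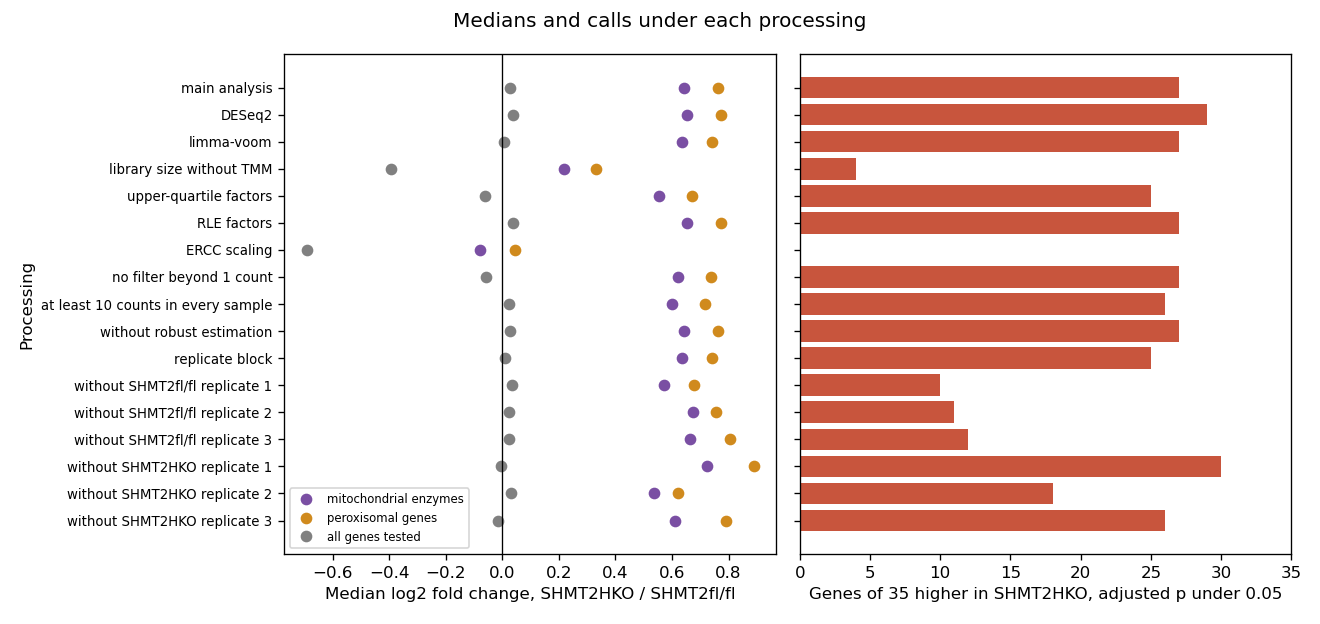
Left, the median log2 fold change (x axis) of the 11 mitochondrial (purple) and 8 peroxisomal genes (orange) and of all genes tested (grey) under each processing (y axis). Right, the number of the 35 genes called higher (bars from 0). The coloured points lie to the right of the grey point in every row, the grey point moves to -0.69 with ERCC scaling and -0.40 without TMM, and the bars fall to 0 and 4 there and to 10 to 12 when a control mouse is left out. A change of scaling moves the grey and coloured points nearly alike.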

How the data were processed

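RNA-seq libraries of 6 livers were analysed, 3 per genotype, with groups and mouse numbers taken from the deposited labels. The authors trimmed reads with Trimmomatic 0.36, aligned them with STAR 2.5.2b to GRCm38 with ERCC sequences and deposited raw gene counts (featureCounts of Subread 1.5.2 per the labels), and strand use is not given in the sources used here. The 92 ERCC RNAs entered neither library sizes nor tests. Each numbered label was taken as a separate mouse, though no source says whether libraries came from separate extractions. The p-values thus measure the spread between these libraries, which may be technical. Each differed from the others of its group by more than counting error, so none was treated as a repeat deposit.

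Genes were filtered with filterByExpr, given TMM factors and compared between genotypes by edgeR's quasi-likelihood F test (edgeR 4.0.16, R 4.3.3, two-sided, robust), with Benjamini-Hochberg adjustment over 16089 genes. RPKM used exon lengths of GENCODE vM21, which is not the annotation of the counts. The exons of all transcripts of a gene were merged for this length. Alternatives were DESeq2 1.42.0, limma-voom (limma 3.58.1), other scalings (no TMM, upper quartile, RLE, ERCC), other filters, plain in place of robust estimation, a block for the replicate number, and each mouse left out in turn. A count of 3, the floor, was 0.0734 to 0.152 CPM.

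The 35 genes and all lists were chosen with earlier results of these data known. In full are given, for each role, the most abundant gene, the largest change and every gene not called, and for each further list the most abundant, the highest and the lowest change, and Ppara. Other genes named were chosen after their values were seen. The tests were run on simulated data before use. Some genes of these pathways are not reported here and enter no list or count of a list, so the further ketone, peroxisomal and peroxin lists are partial. Protein sequences were not used here.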

Additional observations from a re-analysis of the deposited data

How the results depend on the processing

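Of the 27 genes called higher, none kept the call in all 16 alternatives, because ERCC scaling ended every one. With library size alone, without TMM, 4 of the 35 genes were called higher and the medians were 0.29 over the 35 genes, 0.22 over the mitochondrial and 0.33 over the peroxisomal genes. With ERCC scaling 0 were called, the medians were -0.0018, -0.080 and 0.044, and of all genes 107 were called higher and 2759 lower, 2866 in all, in place of 2012 and 2651, 4663 in all. Without TMM 4 of the 35 genes had a log2 fold change below 0, with ERCC scaling 18, and in the other alternatives at most 1. Leaving out a mouse gave 10 to 30 of the 35 genes called higher and medians from 0.60 to 0.76 over the 35 genes. Of all genes 2426 to 5597 were called, 805 to 2521 of them higher. The lowest counts came without a control mouse (10 of 35 without SHMT2fl/fl mouse 1, 11 without mouse 2 and 12 without mouse 3). Fits without an SHMT2HKO mouse had as many samples and gave 30, 18 and 26 without mice 1, 2 and 3. The reason for this difference was not tested. None of the 35 genes was called lower under any of the alternatives.

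Same-numbered mice did not deviate together (r across genes -0.046, 0.013 and -0.077), so their numbers were not taken as pairs. With the replicate number as a block, 25 of the 35 genes were called higher, 24 of them among the 27, and the median was 0.70. Of all genes, 1397 were called higher with the block. Acot1 gained the call (adjusted p = 0.0154 by edgeR), and Cpt1a (0.0612), Acadm (0.0845) and Echs1 (0.0595) lost it.

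Among 53 genes, which are the 35, Shmt2, Ppara and the most abundant and most changed of the further lists, values that changed sign with ERCC scaling were those of Cpt1a (-0.12), Cpt2 (-0.17), Acot2 (-0.16), Acadl (-0.087), Acadm (-0.14), Acads (-0.20), Hadha (-0.042), Hadhb (-0.25), Hadh (-0.080), Echs1 (-0.18), Eci1 (-0.041), Etfb (-0.076), Acox2 (-0.46), Ehhadh (-0.54), Acaa1a (-0.052), Ech1 (-0.050), Acat1 (-0.075), Bdh1 (-0.0018), Slc16a1 (-0.43), Bdh2 (-0.068), Pex6 (-0.26), Pex2 (-0.35) and Rxra (-0.27). Without TMM they were those of Acot2 (-0.14), Hadhb (-0.021), Acox2 (-0.16), Ehhadh (-0.26), Slc16a1 (-0.26) and Pex2 (-0.075). Acot2 also changed sign with limma-voom (-0.19), the block (-0.15) and without SHMT2HKO mouse 3. Leaving out a mouse gave -0.46 to 0.69 for Acot2, -0.17 (without SHMT2HKO mouse 2) to 0.42 for Ehhadh, -0.26 (without SHMT2HKO mouse 3) to 0.32 for Slc16a1 and -0.32 to 0.050 (without SHMT2fl/fl mouse 1) for Crot. Of 100 other pathway and marker genes, 71 had a log2 fold change above 0, and 42 of the 71 changed sign with ERCC scaling and 11 without TMM. With ERCC scaling these included Mlycd (-0.22), Creb3l3 (-0.15), Sirt3 (-0.070), Ppargc1b (-0.36), Alb (-0.26), Hnf4a (-0.27), Trf (-0.25), Ttr (-0.055), Asgr1 (-0.0059), Fah (-0.076), Serpinc1 (-0.12) and Cd36 (-0.10). None of the values with a changed sign had an adjusted p under 0.05, and beyond the scaling itself the cause was not tested. The lowest count of any of the 35 genes in a liver was 192, for Acot2, and whether depth bore on the genes not called was not tested.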
